A study of Homo sapiens with 15 samples.

Results

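S-phase cells were compared with asynchronously growing cells, both given DMSO, in U2OS, a human osteosarcoma line that carries wild-type p53. Libraries were chosen by their labels: DMSO S-phase replicates 1 to 3 and DMSO asynchronous replicates 1 to 3, that is 6 of the 15 libraries of the study. RNA sequencing was used in the study to compare Nutlin, an antagonist of the p53 ubiquitin ligase MDM2, with its DMSO control in cells grown asynchronously, held in a thymidine block or released into S-phase, and Nutlin was given at 10 µM, as the labels are read here. Per the labels' protocols, S-phase cells had been held in 2 mM thymidine for 16 h, given 8 h without it and held again for 16 h. DMSO was added 4 h before the block was lifted by washing, and cells were harvested 4 h after that in medium with 10% fetal calf serum. Asynchronous cells grew in the same medium without a block, and the time they spent with DMSO is not stated in the labels. Non-released cells, of which 2 DMSO libraries are quoted for their levels only, were kept in the second block. The thymidine history, the washes, the fresh medium and the cell cycle phase therefore differ together between S-phase and asynchronous cells and cannot be told apart. S-phase is the label of the group, and no measurement of DNA content was used here. All libraries come from 1 cell line, and whether replicates came from separate cultures is not stated in the labels. The p-values therefore cover no more than the spread between these libraries, which may be technical.

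An excess of thymidine stops DNA synthesis by unbalancing the deoxynucleotide pools, so that cells collect at the start of S-phase and move through it together once thymidine is washed out. During S-phase cells make histone mRNA in step with DNA, and the replication-dependent histone genes are the textbook case of genes expressed in that phase. Genes of mitosis are usually expressed later, in G2, and genes for entering S-phase earlier, under E2F transcription factors. An asynchronous culture mixes cells of all phases.

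Values are on the deposited log2 scale, on which a gene without reads has 4.859, and differences at low read numbers are compressed on it. Reads recovered from these values came to 16.98, 17.91 and 15.64 M reads (M for mega) in asynchronous replicates 1 to 3 and to 19.02, 6.05 and 15.93 M reads in S-phase replicates 1 to 3. The limit that a count of 0 allows, 3 reads, lay between 0.158 and 0.496 counts per M reads in these libraries and covers counting error only. A library from each group stood apart. In asynchronous replicate 3, 359 genes (2.51% of those tested) lay more than 1 unit from the mean of the other 2 libraries of the group, and in S-phase replicate 2, the shallowest, 358 genes (2.5%) did, against 10 to 158 in the other 4. Asynchronous replicate 3 held 7826.1 normalised reads of KRT19, an epithelial keratin, 3505.5 of CDH1, the epithelial cadherin, and 1434.1 of ESR1, the oestrogen receptor, while no other library of the study held more than 33.9, 98.9 and 22.6. Among the 6 libraries, 15 of the 20 epithelial markers in the table were highest there, as were 14 of the 16 luminal breast markers. The summed reads of the epithelial markers were 49338.3 in that library and 21944.3 to 31936.5 in the other 5, and those of the luminal markers 40499.4 against 15166.9 to 19034.6. S-phase replicate 2 held 9927.1 normalised reads of the collagen COL1A1, against 2593.3 and 1746.5 in the other S-phase libraries. Bone and mesenchymal markers summed to 48490.9 to 63838.7 reads in the 6 libraries, with SP7, TWIST1, DLX5 and IBSP under the limit in every one, and 9 of 15 blood markers were under it too. The ribosomal precursor RN45S took 1.42, 0.14 and 0.1% of reads in the asynchronous and 0.29, 2.82 and 0.41% in the S-phase libraries. The part of these differences in the results was not tested, and a fit without both libraries, called the 13-library fit, was made beside the fit of all 15 libraries of the study.

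Of 14298 genes tested with limma, 3955 (27.7%) passed an adjusted p of 0.05 between S-phase and asynchronous DMSO cells, 2012 higher (14.1%) and 1943 lower (13.6%) in S-phase. Differences of more than 1 log2 unit were mostly upward, with 180 genes higher and 14 lower. The median difference was 0.54 among the genes called higher, -0.40 among those called lower and -0.01 over all genes. In the 13-library fit 2234 genes were higher (15.6%) and 2290 lower (16%), and 3208 genes were called in both fits, all in the same direction. The spread of each gene was estimated from all 6 groups, and when it was taken from the 6 libraries alone 1010 genes passed, 693 higher and 317 lower. The split between higher and lower calls differed by level, which was looked at after the data were seen. With the genes ordered by mean level into 3 equal groups of 4766, 915 were higher and 177 lower in the group of lowest level, 723 and 618 in the middle group, and 374 and 1146 in the group of highest level. The median differences of these groups were 0.13, -0.02 and -0.13, and voom on recovered reads gave 0.23, -0.02 and -0.13. All 3 S-phase libraries lay above all 3 asynchronous ones for 17.9% of genes and below them for 17.6%. Changes in the share of cells in a phase and changes in the RNA per cell cannot be told apart in such bulk samples.

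**Figure D1:**
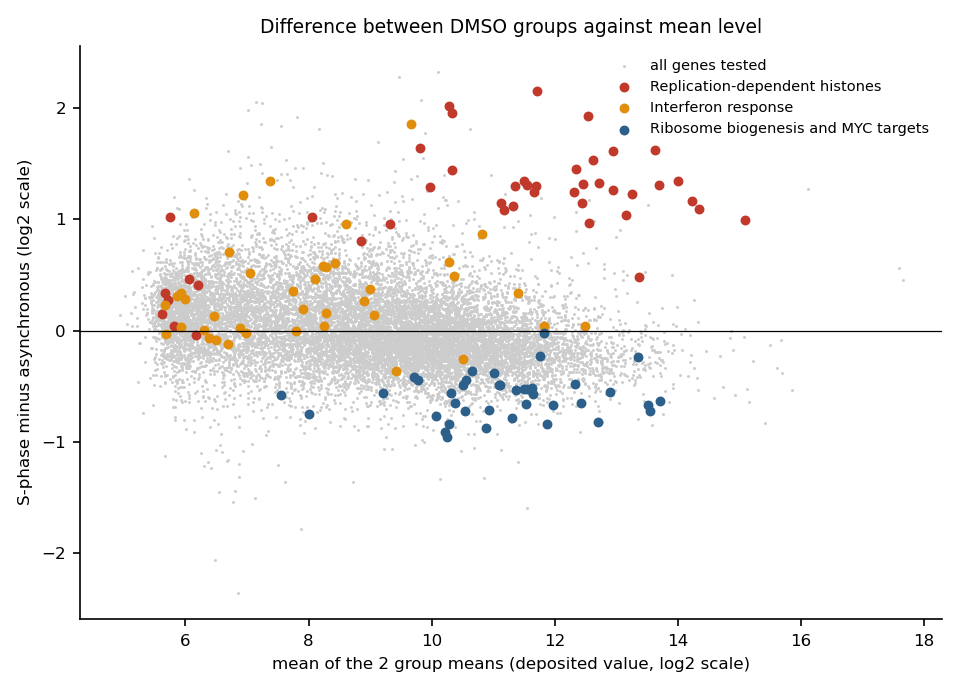
Difference between the DMSO group means (S-phase minus asynchronous, log2 scale) against the mean of the 2 group means (deposited value, log2 scale), with 1 point per gene for the 14298 genes tested. The replication-dependent histone genes lie above the cloud at high levels (median difference 1.24), the ribosome biogenesis genes lie below 0 (median -0.57) and interferon response genes reach up to 1.86.

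Replication-dependent histone genes rose in S-phase cells nearly as a group. The table held 69 such genes, of which 44 were tested and 38 passed, all higher, with a median difference of 1.24 against -0.01 over all genes. The 13-library fit called 41 higher and none lower, with a median of 0.99. The median level of the 44 genes was 11.49, 10.82 and 10.3 in asynchronous replicates 1 to 3 and 12.35, 12.05 and 12.38 in the S-phase libraries. The S-phase libraries were all above the asynchronous ones, which differed among themselves by more than the S-phase libraries did. In the 2 DMSO non-released libraries this median was 10.1 and 9.9, below every asynchronous library.

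Each nucleosome holds the 4 core histones H2A, H2B, H3 and H4, and the linker histone H1 binds the DNA between nucleosomes. Genes of all 5 classes rose. All 11 tested H2A genes passed, with differences from 0.81 to 1.65, as did the 3 tested H1 genes, from 0.99 to 2.15. For H2B 12 of 14 genes passed (median 1.08), for H4 8 of 9 (median 1.33) and for H3 4 of 7 (median 1.17). HIST1H1A, which encodes a linker histone, had levels of 10.91, 10.73 and 10.25 in the asynchronous and 12.95, 12.39 and 13.003 in the S-phase libraries. Its S-phase values were all higher, S-phase replicate 2 being the lowest of them, with a difference of 2.15 ± 0.19 (SE, n = 3 per group, limma adjusted p = 1.81e-05; 2.16 in the 13-library fit). The H4 gene HIST4H4 went from 9.88, 9.17 and 8.78 to 11.30, 11.22 and 11.39. This is a difference of 2.02 ± 0.20 (limma adjusted p = 3.68e-05), and here the asynchronous libraries, not the S-phase ones, were far from each other.

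HIST1H4I, another H4 gene, read 9.75, 9.52 and 8.76 in the asynchronous and 11.38, 11.03 and 11.49 in the S-phase libraries, a difference of 1.96 ± 0.20 (limma adjusted p = 4.01e-05). HIST1H3A, an H3 gene, read 12.26, 11.60 and 10.85 against 13.57, 13.32 and 13.61, a difference of 1.93 ± 0.24 (limma adjusted p = 0.000152). The groups of both genes were apart, and asynchronous replicate 3 was the lowest library for each. HIST1H2BF, an H2B gene, read 12.07, 11.65 and 11.15 against 13.01, 13.07 and 13.14, a difference of 1.45 ± 0.17 (limma adjusted p = 0.000106). Without asynchronous replicate 3 and S-phase replicate 2 the differences of these 3 genes were 1.80, 1.66 and 1.22, all past the test.

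The 6 tested histone genes that did not pass were HIST1H3E (-0.04), HIST1H4J (0.04), HIST1H2BO (0.15), HIST1H3C (0.27), HIST1H3J (0.34) and HIST1H2BE (0.42). In the 13-library fit HIST1H2BO, HIST1H3C, HIST1H3J and HIST1H2BE passed, at 0.43, 0.58, 0.62 and 0.66, and HIST1H2BK no longer did. Of the 25 histone genes too low to be tested, 6 had no read in any of the 6 libraries: HIST2H2AA3, HIST2H2AA4, HIST2H3A, HIST2H3C, HIST2H4A and HIST2H4B, each listed beside a near-identical copy. Histone genes resemble each other closely, so reads could be split or dropped between copies, and values of single genes are uncertain to that extent. Another 13 of the 25 had more than 10 normalised reads in asynchronous replicate 3 and fewer in each of the other 14 libraries. Among them HIST1H1D had 82.2 reads there and at most 2.6 elsewhere, HIST1H1B 74.1 and at most 1.4, and HIST1H4F 43.6 and 0.0.

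The bases before the start of the histone genes are shown because the genes moved together. They are the 4 members of smallest p that matched a single gene of RefSeq's promoter table and the matched H2B gene of smallest p (the name HIST1H2BF fits more than 1 RefSeq gene and was not matched). Shown are 200 bases up to the start site, 5′ to 3′ on the gene's strand (GRCh38.p14; the deposited data used hg19). Capitals mark the letters CCAAT (the CCAAT box), TATAAA (the TATA box) and ATTTGCAT (the octamer known from H2B promoters), searched on both strands, and no marked matches overlap.
HIST1H1A: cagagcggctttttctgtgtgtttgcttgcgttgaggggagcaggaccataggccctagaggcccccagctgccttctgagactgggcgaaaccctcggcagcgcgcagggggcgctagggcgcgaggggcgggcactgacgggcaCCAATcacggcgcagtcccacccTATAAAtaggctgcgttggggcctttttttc
HIST4H4: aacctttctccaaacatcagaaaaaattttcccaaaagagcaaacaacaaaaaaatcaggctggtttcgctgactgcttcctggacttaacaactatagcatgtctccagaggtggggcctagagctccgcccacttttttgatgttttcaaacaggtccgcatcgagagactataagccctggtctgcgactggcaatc
HIST1H4I: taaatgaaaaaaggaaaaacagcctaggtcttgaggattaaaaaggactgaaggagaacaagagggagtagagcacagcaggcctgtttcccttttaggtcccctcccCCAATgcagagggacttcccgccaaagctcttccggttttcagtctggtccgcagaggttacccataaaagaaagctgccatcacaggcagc
HIST1H3A: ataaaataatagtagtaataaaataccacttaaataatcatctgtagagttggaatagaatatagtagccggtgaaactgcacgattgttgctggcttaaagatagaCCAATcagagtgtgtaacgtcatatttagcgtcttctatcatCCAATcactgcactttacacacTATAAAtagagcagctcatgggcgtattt
HIST2H2BE: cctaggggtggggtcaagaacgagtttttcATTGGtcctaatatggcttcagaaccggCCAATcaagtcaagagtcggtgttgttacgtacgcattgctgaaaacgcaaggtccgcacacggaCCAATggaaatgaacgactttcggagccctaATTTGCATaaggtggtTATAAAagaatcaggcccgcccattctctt
These are chr6:26017788-26017987 (minus strand), chr12:14771132-14771331 (minus), chr6:27139082-27139281 (plus), chr6:26020251-26020450 (plus) and chr1:149886683-149886882 (minus). Counting the base before the start as -1, TATAAA begins at -31 in HIST1H1A, -29 in HIST1H3A and -30 in HIST2H2BE, and the octamer of HIST2H2BE at -46. Of the 44 tested histone genes 36 were matched to RefSeq promoters (300 bases, 250 of them before the start), with 40 starts. CCAAT was in 85% of these and in 34.6% of all 35116 promoters of that length. TATAAA was in 75% against 11.5%, and ATTTGCAT in 42.5% against 1.77%, rising to 66.7% of the 12 H2B starts. HIST2H2BE itself had a difference of 1.15 (limma adjusted p = 0.000306), and HIST4H4, with none of the 3 letter strings in the bases shown, had one of 2.02. A match of letters describes the sequence and does not show binding.

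**Figure D2:**
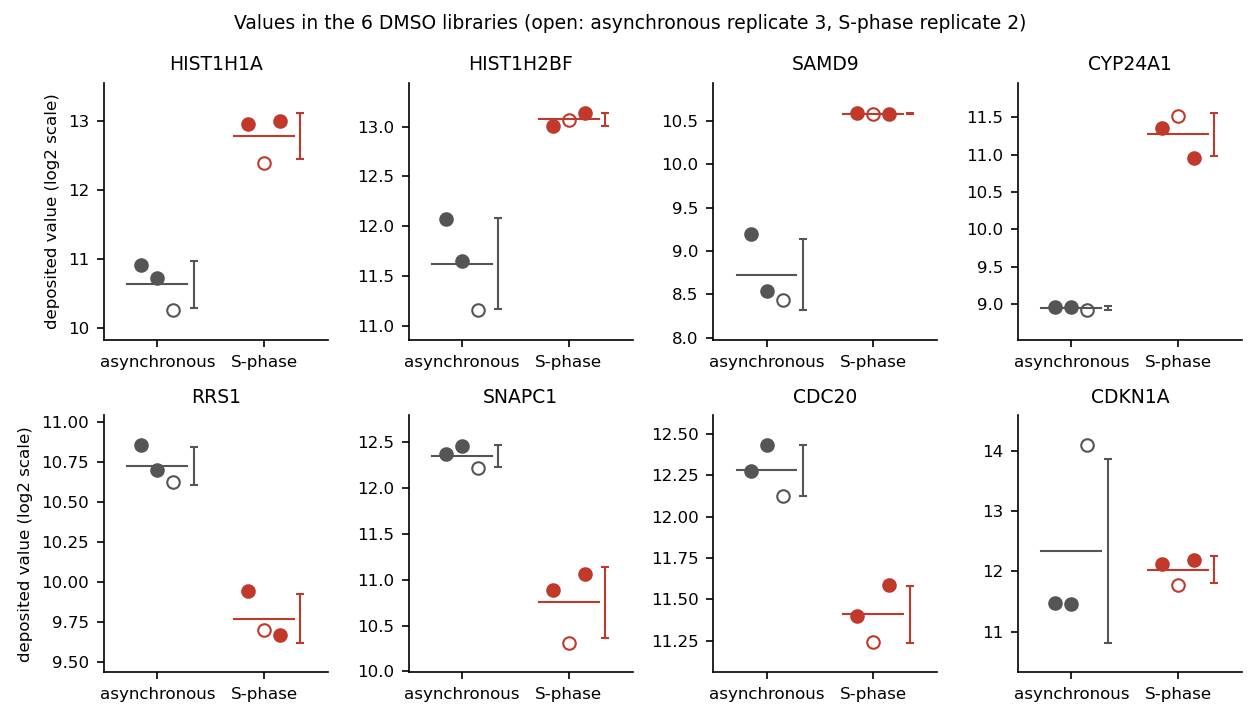
Deposited values (log2 scale) of 8 genes in the 3 DMSO asynchronous and 3 DMSO S-phase libraries. Each point is a library, open points are asynchronous replicate 3 and S-phase replicate 2, horizontal lines are means and bars span 1 SD on either side (n = 3). The groups do not overlap for any gene shown except CDKN1A, where asynchronous replicate 3 is at 14.10 and the other 2 at 11.47 and 11.45. All genes except CDKN1A were named by rules that required no overlap or a small p. Their lack of overlap was therefore largely set by that choice.

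Factors that make or package histone mRNA did not move as the histone genes did. Of 24 tested genes for histone variants and histone RNA processing 4 were higher and 4 lower (median -0.06; 4 and 1 in the 13-library fit). Each share was 16.7%, against 14.1% higher and 13.6% lower over all genes. The group of highest level, where 7.85% of all genes were higher and 24% lower, held 18 of the 24. SLBP, which binds the stem-loop that ends these mRNAs, read 10.39, 10.32 and 10.12 in the asynchronous and 10.27, 9.84 and 10.21 in the S-phase libraries. The groups overlapped and the gene did not pass (-0.17 ± 0.12, limma adjusted p = 0.295). The variant genes H2AFY2 (macroH2A2), H1F0 (H1.0), H1FX and H2AFJ were the 4 that rose, by 0.74, 0.52, 0.57 and 0.30. H2AFY2 went from 8.12, 8.07 and 8.18 to 8.95, 8.75 and 8.87 (0.74 ± 0.12, limma adjusted p = 0.000809). CSTF2, a cleavage factor of mRNA ends, and HINFP, a transcription factor of H4 genes, fell by 0.40 and 0.35, and of the 8 calls those of H1FX, CPSF2, ZC3H8 and HINFP were not made in the 13-library fit.

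Genes of S-phase entry and of the replication fork differed much less than histone genes. Of 30 tested G1/S genes under E2F control 22 were in the group of highest level, where 7.85% of genes were higher and 24% lower. Of the 30 genes 4 were higher and 1 lower (median 0.15), shares of 13.3% and 3.33% against 14.1% and 13.6% of all genes. The 4 were FAM111B, the cyclins CCNE1 and CCNE2, which start S-phase with CDK2, and CHAF1B, a histone chaperone subunit that did not pass in the 13-library fit. CCNE1 had values of 11.08, 10.92 and 10.49 in the asynchronous and 11.37, 11.27 and 11.41 in the S-phase libraries. Its groups were apart by 0.52 ± 0.12 (limma adjusted p = 0.00676). CCNE2 read 9.23, 8.87 and 8.78 against 9.52, 9.21 and 9.61, a difference of 0.49 ± 0.12 (limma adjusted p = 0.00949) although asynchronous replicate 1 was above S-phase replicate 2. The non-released DMSO libraries read 10.38 and 10.33 for this gene, above every S-phase library. E2F1, the founding member of the family, did not pass (0.15 ± 0.11, limma adjusted p = 0.309). ZNF367 was the 1 gene that fell (-0.35 ± 0.11, limma adjusted p = 0.0265).

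Of 29 genes of origin licensing and firing, which load and start the MCM helicase, 4 were higher and 2 lower, with a median of -0.01. The shares were 13.8% and 6.9%, against 14.1% and 13.6% of all genes. The group of highest level, where 7.85% of all genes were higher and 24% lower, held 24 of the 29. GINS4 and CDC45, partners of the helicase in the moving fork, rose by 0.49 ± 0.09 (limma adjusted p = 0.00221) and 0.41 ± 0.10 (limma adjusted p = 0.0106). GINS4 read 10.47, 10.51 and 10.24 in the asynchronous and 10.96, 10.75 and 10.98 in the S-phase libraries, which did not overlap. The other 2 were the helicases MCM8 and RECQL4, the second of which did not pass in the 13-library fit. DBF4, the activator of the CDC7 kinase, and ORC5, a subunit of the origin recognition complex, fell by 0.45 and 0.34. The loading factors CDC6 and CDT1 did not pass, at 0.24 and 0.26, but CDC6 did in the 13-library fit (0.23, limma adjusted p = 0.0278). That fit called 5 of the 29 higher and 3 lower, and 15.6% and 16% of all genes.

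For the polymerases, clamp and chromatin assembly factors of the fork 6 of 34 genes were higher and 2 lower (median 0.18), and 12 and 3 in the 13-library fit. The shares with all libraries were 17.6% and 5.88%, against 14.1% and 13.6% of all genes. The group of highest level, where 7.85% of all genes were higher and 24% lower, held 27 of the 34. In the 13-library fit 15.6% and 16% of all genes were called. ASF1B, a chaperone of newly made H3 and H4, rose the most, from 9.58, 9.56 and 9.26 to 10.37, 10.42 and 10.42. The 3 S-phase values lay close together, at a difference of 0.94 ± 0.09 (limma adjusted p = 3.48e-05). CLSPN (claspin, a checkpoint adaptor), RNASEH2A, POLA2 and LIG1, the ligase that joins Okazaki fragments, rose by 0.49, 0.51, 0.45 and 0.44, and TIMELESS, of fork protection, by 0.28. PCNA, the sliding clamp, read 12.13, 12.11 and 11.88 against 12.36, 12.06 and 12.43. S-phase replicate 2 was within the asynchronous range, and PCNA did not pass with all libraries (0.24, limma adjusted p = 0.0871) but did without S-phase replicate 2 (0.35, limma adjusted p = 0.00973) and in the 13-library fit (0.27, limma adjusted p = 0.0104). TIPIN and POLE3 fell by 0.49 and 0.46.

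Of 44 tested genes of fork protection, recombination and the replication checkpoint 12 were higher (27.3%, against 14.1% of all genes) and 4 lower (9.09%, against 13.6%), with a median of 0.06, and 11 and 4 in the 13-library fit. BRCA1, which acts in homologous recombination, read 10.75, 10.74 and 10.87 in the asynchronous and 11.39, 11.51 and 11.33 in the S-phase libraries. The groups were well apart, by 0.62 ± 0.08 (limma adjusted p = 0.00021). Genes named for Fanconi anaemia, whose pathway repairs crosslinks and guards forks, made up 5 of the 12: FANCI (0.55 ± 0.08, limma adjusted p = 0.000415), FANCL (0.54), FANCG (0.43), FANCD2 (0.33) and FANCA (0.32), while FANCE fell by 0.36. FANCB, FANCC, FANCF and FANCM did not pass, with differences of -0.12, -0.17, -0.17 and -0.19. RMI2, of the complex that dissolves crossed DNA strands, rose by 0.69 ± 0.11 (limma adjusted p = 0.000687). RAD54L and FANCA did not pass in the 13-library fit. NBN and HUS1, which sense damage, and the kinase WEE1 fell by 0.45, 0.40 and 0.22. In the non-released DMSO libraries BRCA1 read 11.49 and 11.43.

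Nucleotide synthesis genes were called in both directions. Of 36 tested genes 4 were higher (11.1%, against 14.1% of all genes) and 9 lower (25%, against 13.6%), with a median of -0.06. The 13-library fit called 7 and 9. The group of highest level, where 24% of all genes were lower, held 28 of the 36. RRM1 and RRM2, subunits of ribonucleotide reductase, which makes deoxynucleotides, were among the 4 that were higher. Another subunit gene, RRM2B, did not pass with all libraries (0.09, limma adjusted p = 0.733). In the 13-library fit RRM2B was higher (0.46, limma adjusted p = 0.00227). RRM2 read 12.83, 12.52 and 12.38 in the asynchronous and 13.49, 13.52 and 13.26 in the S-phase libraries, a difference of 0.84 ± 0.12 (limma adjusted p = 0.000331). All S-phase libraries were above all asynchronous ones, and RRM1 rose by 0.46. SHMT1, a folate enzyme, and SAMHD1, which degrades deoxynucleotides, rose by 0.51 and 0.38. The 9 that fell included DHODH and UMPS of new pyrimidine synthesis (-0.82 and -0.37), UCK2, which salvages uridine (-0.51), and PPAT, ADSL, PFAS and PRPS1 of new purine synthesis (-0.50, -0.40, -0.29 and -0.49). DHODH went from 8.64, 8.92 and 8.70 to 7.92, 7.73 and 8.13, with no overlap (limma adjusted p = 0.000448).

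**Figure D3:**
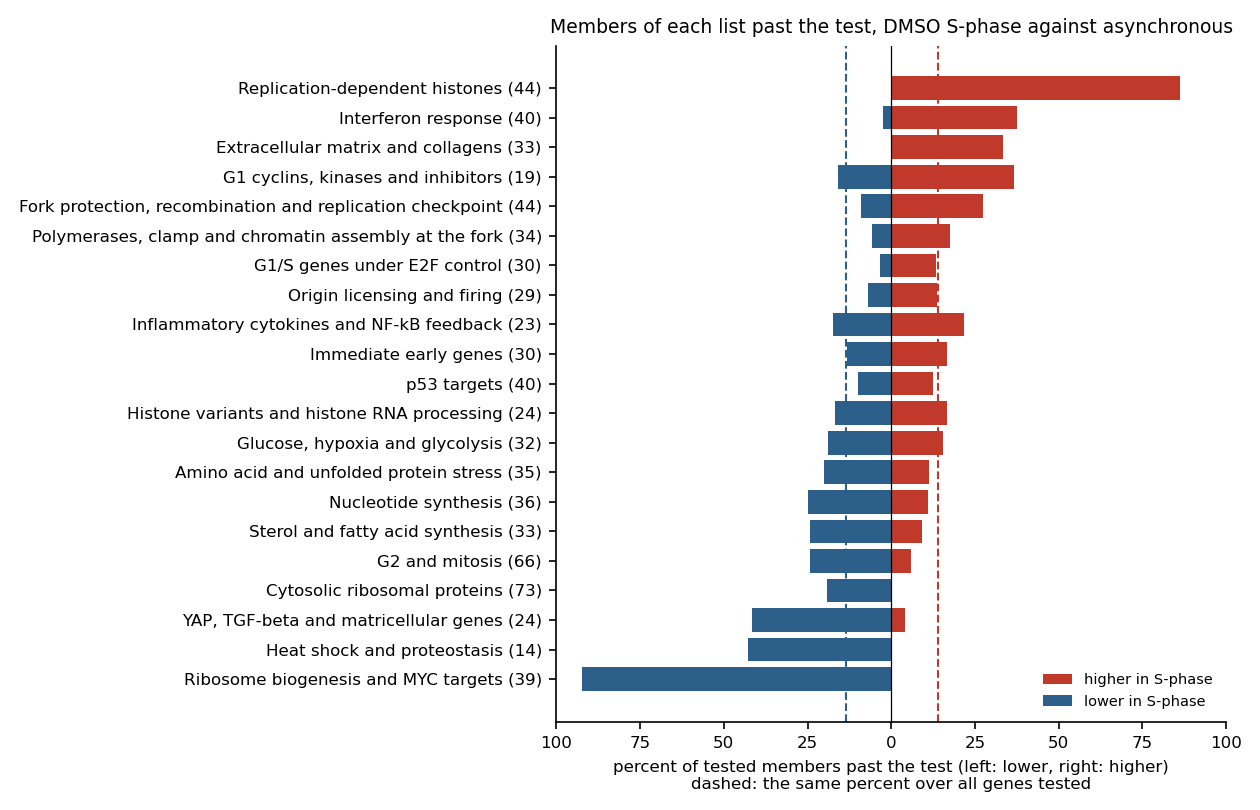
Percent of the tested members of each gene list that passed the test as higher (right) or lower (left) in S-phase than in asynchronous DMSO cells, with the number of tested members in brackets. Dashed lines are the same percents over all 14298 genes (14.1% higher, 13.6% lower). Histone genes (86.4% higher) and ribosome biogenesis genes (92.3% lower) lie farthest from them.

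Among the cyclins, kinases and inhibitors of G1, 7 of 19 tested genes were higher and 3 lower (median 0.21; 11 and 4 in the 13-library fit). The shares were 36.8% and 15.8%, against 14.1% and 13.6% of all genes, and in the 13-library fit 15.6% and 16% of all genes were called. CCND1, cyclin D1, read 13.01, 12.98 and 13.12 in the asynchronous and 12.40, 12.28 and 12.41 in the S-phase libraries. It fell by 0.67 ± 0.07 (limma adjusted p = 4.94e-05), with little spread in either group, and CCND2 and CDK6 fell by 0.61 and 0.42. The third D-type cyclin, CCND3, rose instead, from 10.09, 10.16 and 9.78 to 10.75, 10.71 and 10.88 (0.76 ± 0.11, limma adjusted p = 0.000283). The CDK4 and CDK6 inhibitors CDKN2D (p19) and CDKN2C (p18) rose by 0.87 ± 0.11 (limma adjusted p = 0.000171) and 0.76 ± 0.10 (limma adjusted p = 0.000256). CDKN2D read 7.19, 7.33 and 7.20 against 8.26, 8.00 and 8.08, so that every S-phase library was above every asynchronous one. CCNG2, CDK2, CDKN1C and RB1 were the other genes that rose, and CDKN1C did not pass in the 13-library fit.

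Of 66 genes of G2 and mitosis 16 were lower (24.2%, against 13.6% of all genes) and 4 higher, with a median of -0.16. Of the 66 genes 58 were in the group of highest level, where 24% of all genes were lower, a share near that of the list. The 13-library fit called 20 lower and 5 higher, but without S-phase replicate 2 alone 8 were lower and 6 higher. CDC20, the activator of the anaphase-promoting complex, read 12.28, 12.43 and 12.13 in the asynchronous and 11.40, 11.24 and 11.59 in the S-phase libraries. It fell by 0.87 ± 0.11 (limma adjusted p = 0.000192), with no overlap. PLK1, a mitotic kinase, went from 10.41, 10.35 and 10.06 to 9.66, 9.90 and 9.42 (-0.62 ± 0.12, limma adjusted p = 0.0032). AURKA and KIF20A, a kinase of the spindle poles and a kinesin of the midzone, fell by 0.66 and 0.68, and CCNB1, cyclin B1, by 0.44 ± 0.14 (limma adjusted p = 0.0299). CCNA2, cyclin A2, which is used in S-phase and G2, did not pass (-0.28 ± 0.15, limma adjusted p = 0.176). The 4 that rose were SPC24 and SPC25 of the kinetochore (0.50 and 0.46), the spindle protein NUSAP1 (0.31) and CENPI (0.28). The DMSO non-released libraries read 10.97 and 11.06 for CDC20, below the S-phase ones.
The 200 bases before the start of CDC20 are shown with capitals for CCAAT and for TTTGAA, the cell cycle homology region known from genes of mitosis, searched on both strands (RefSeq, GRCh38.p14, chr1:43358781-43358980, plus strand).
CDC20: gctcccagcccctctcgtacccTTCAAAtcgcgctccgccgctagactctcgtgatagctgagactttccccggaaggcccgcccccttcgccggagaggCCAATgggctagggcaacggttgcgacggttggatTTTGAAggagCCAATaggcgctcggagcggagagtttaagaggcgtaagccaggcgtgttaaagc
TTTGAA begins at -65 and its reverse complement at -178, and CCAAT at -100 and -55. Promoters were matched for 54 of the 66 tested genes, with 66 starts. TTTGAA was in 62.1% of them and in 15.2% of all promoters, and CCAAT in 75.8%.

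Ribosome biogenesis genes fell as a group. Of 39 tested genes of ribosome biogenesis and other MYC targets 36 were lower and none higher, with a median of -0.57, and all 39 had a negative difference. The 13-library fit called 37 lower (median -0.63), and leaving out either library alone gave 35 and 36. Of these genes 34 were in the group of highest level, where 24% of all genes were lower. The median level of the list was 11.55, 11.39 and 11.34 in the asynchronous and 10.88, 10.80 and 10.81 in the S-phase libraries. The groups were apart by more than the spread within them, and the non-released DMSO libraries were lower again, at 10.64 and 10.54. The 3 that did not pass were UBTF (-0.02), a factor of RNA polymerase I, CDK4 (-0.23) and LDHA (-0.23).

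RRS1, which helps to assemble the large subunit, read 10.86, 10.70 and 10.63 in the asynchronous and 9.95, 9.70 and 9.67 in the S-phase libraries, a difference of -0.96 ± 0.12 (limma adjusted p = 0.000124). RRP12, of subunit export, went from 11.41, 11.39 and 11.17 to 10.45, 10.35 and 10.54 (-0.88 ± 0.09, limma adjusted p = 5.44e-05). Both genes had S-phase libraries below all asynchronous ones. UTP20, a processing factor of the small subunit, read 11.69, 11.72 and 11.70 against 10.94, 10.99 and 10.81 and fell by 0.79 ± 0.08 (limma adjusted p = 4.25e-05), and BYSL, another, by 0.65 ± 0.08 (limma adjusted p = 0.000151). DKC1 and GAR1 of the box H/ACA particles, which modify ribosomal RNA, fell by 0.84 and 0.75, and NPM1 and NCL, abundant proteins of the nucleolus, by 0.65 and 0.63. The RNA polymerase I subunits POLR1A and POLR1B fell by 0.49 and 0.52. MYC itself read 12.12, 11.90 and 11.65 against 11.13, 11.50 and 11.50. Its groups were apart by -0.52 ± 0.12 (limma adjusted p = 0.00801), and in the non-released DMSO libraries it read 10.26 and 10.23.
The 200 bases before the start of UTP20, the list's gene of smallest p with an entry, are shown with CACGTG, the E-box that MYC is known to bind, in capitals (RefSeq, GRCh38.p14, chr12:101279905-101280104, plus strand).
UTP20: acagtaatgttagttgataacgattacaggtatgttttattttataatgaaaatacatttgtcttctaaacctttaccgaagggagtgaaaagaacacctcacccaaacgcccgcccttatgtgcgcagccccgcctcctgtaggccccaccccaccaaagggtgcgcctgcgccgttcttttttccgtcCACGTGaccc
CACGTG, which is its own reverse complement, begins at -10 there. It was in 37.8% of the 45 promoters of the 33 matched list genes and in 7.26% of all promoters.

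The proteins of the ribosome itself were less clear. Of 73 tested cytosolic ribosomal protein genes 14 were lower (19.2%) and none higher, although 72 had a negative difference (median -0.27). In the group of highest level, which held 60 of them, 24% of all genes were lower. The 13-library fit called 33 lower, the fit without asynchronous replicate 3 called 42 and that without S-phase replicate 2 called 8. The median level was 12.33, 12 and 11.78 in asynchronous replicates 1 to 3 and 11.80, 11.51 and 11.95 in the S-phase libraries, so the groups overlapped. RPL22 fell from 9.27, 9.14 and 9.18 to 8.81, 8.49 and 8.80 (-0.50 ± 0.11, limma adjusted p = 0.00688). Of 14 tested heat shock and proteostasis genes 6 were lower (42.9%, against 13.6% of all genes) and none higher (median -0.24; 5 and 1 in the 13-library fit). The group of highest level held 9 of the 14. HSPA8 and HSP90AB1, the constitutive HSC70 and HSP90, fell by 0.64 ± 0.14 (limma adjusted p = 0.00419) and 0.58 ± 0.10 (limma adjusted p = 0.00154). HSPA8 read 15.70, 15.51 and 15.25 against 14.94, 14.58 and 15.002, with no overlap.

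A set of interferon response genes was higher in S-phase than in asynchronous cells. Of 54 such genes 40 were tested, and 15 were higher (37.5%, against 14.1% of all genes) and 1, IFIT5, lower, with a median of 0.28. The group of lowest level, where 19.2% of all genes were higher, held 21 of the 40. The 13-library fit called 19 higher and 1, TRIM25, lower (median 0.32), and IFIT5 and LGALS3BP did not pass there. SAMD9, a sensor that restricts viral translation, read 9.20, 8.54 and 8.44 in the asynchronous and 10.60, 10.59 and 10.58 in the S-phase libraries. The S-phase values hardly differed among themselves and were all higher, by 1.86 ± 0.16 (limma adjusted p = 1.31e-05). Its neighbour in the genome and relative SAMD9L went from 6.95, 6.68 and 6.48 to 7.98, 8.03 and 8.13 (1.35 ± 0.13, limma adjusted p = 3.5e-05). The mono-ADP-ribosyltransferase PARP14 read 10.39, 10.35 and 10.44 against 11.19, 11.26 and 11.32, a difference of 0.86 ± 0.07 (limma adjusted p = 9.86e-06). The libraries of each group lay close together, and its relative PARP9 and the PARP9 partner DTX3L rose by 0.95 and 0.49.

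IFI44, an interferon-induced gene, read 6.55, 6.13 and 6.28 in the asynchronous and 7.63, 7.50 and 7.49 in the S-phase libraries (1.22 ± 0.11, limma adjusted p = 2.02e-05), and IFI44L rose by 1.06. STAT2 and IRF9, which carry the signal of type I interferon to the nucleus, rose by 0.62 and 0.58. Several genes most used as interferon markers did not pass: IFIT1 (0.00 ± 0.19, limma adjusted p = 0.993), MX1 (0.03), IFIT2 (-0.03), IFIT3 (0.13) and ISG15 (0.16). IFIT1 read 6.04, 6.39 and 6.48 against 6.58, 5.90 and 6.44, with overlapping groups. ISG15, BST2, USP18, DDX58 and CMPK2 passed in the 13-library fit, at 0.39, 0.48, 0.55, 0.33 and 0.42. In the non-released DMSO libraries SAMD9 read 10.50 and 10.37, and IFIT1 7.59 and 7.47. The median level of the 40 tested genes was 7.69, 7.82 and 7.77 in the asynchronous and 7.99, 8.09 and 8.03 in the S-phase libraries. In the non-released DMSO libraries it was 8.2 and 8.19, above every DMSO S-phase library. A higher level than in asynchronous cells was thus not particular to S-phase cells, and S-phase and non-released cells were not compared by a test.
The 200 bases before the start of the 3 interferon response genes of smallest p are shown with the core of the interferon-stimulated response element in capitals, that is GAAA, any 2 bases and GAAA again, searched on both strands.
PARP14: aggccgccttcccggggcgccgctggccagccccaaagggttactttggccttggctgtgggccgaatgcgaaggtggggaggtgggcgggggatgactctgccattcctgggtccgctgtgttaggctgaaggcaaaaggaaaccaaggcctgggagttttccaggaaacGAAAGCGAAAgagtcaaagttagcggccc
SAMD9: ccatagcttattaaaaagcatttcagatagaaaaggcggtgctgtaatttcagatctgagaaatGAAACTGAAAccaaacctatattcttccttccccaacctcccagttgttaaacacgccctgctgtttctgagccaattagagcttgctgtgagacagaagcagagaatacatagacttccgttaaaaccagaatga
IFI44: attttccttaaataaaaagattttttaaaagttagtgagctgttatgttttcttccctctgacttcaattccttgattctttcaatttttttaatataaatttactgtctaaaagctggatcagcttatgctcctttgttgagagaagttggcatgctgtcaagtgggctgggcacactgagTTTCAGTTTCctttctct
They are chr3:122680639-122680838 (plus strand), chr7:93117980-93118179 (minus) and chr1:78649589-78649788 (plus, the first of 2 starts listed) in GRCh38.p14, from RefSeq. Matches begin at -29, -136 and -18, that of IFI44 on the opposite strand. The letters were in 59.5% of the 42 promoters of the 34 matched genes and in 3.57% of all promoters.

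Named by size, the largest rises called in both fits with groups that did not overlap were in CYP24A1, RGS4, HIST1H1A, SYTL5, UCN2, TNS4, HIST4H4, RNF43, HIST1H4I, HIST1H3A, EREG and SAMD9. CYP24A1, the mitochondrial enzyme that inactivates vitamin D, read 8.96, 8.96 and 8.91 in the asynchronous and 11.35, 11.51 and 10.96 in the S-phase libraries, a difference of 2.33 ± 0.11 (limma adjusted p = 1.03e-07). The asynchronous libraries were nearly equal, and the non-released ones read 10.06 and 10.03. RGS4, which shortens signals of G protein-coupled receptors, went from 9.25, 8.15 and 7.61 to 10.54, 10.62 and 10.69 (2.28 ± 0.31, limma adjusted p = 0.000283). SYTL5, a synaptotagmin-like protein of vesicle traffic, went from 9.0, 8.57 and 8.79 to 10.84, 10.83 and 10.91 (2.08 ± 0.11, limma adjusted p = 2.62e-07). RGS4 differed widely among the asynchronous libraries and SYTL5 did not.

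Secreted signals were among these genes. UCN2, a peptide of the corticotropin-releasing factor family, read 6.12, 6.24 and 6.00 against 8.08, 8.42 and 8.04 (2.06 ± 0.16, limma adjusted p = 9.5e-06), and 6.18 and 5.93 in the non-released libraries. EREG, an epidermal growth factor receptor ligand, read 6.94, 6.77 and 6.84 against 8.61, 8.81 and 8.88 (1.92 ± 0.18, limma adjusted p = 1.93e-05), and 6.76 and 6.67 in the non-released libraries. For both the non-released libraries lay near the asynchronous ones and the S-phase libraries stood well above them, and S-phase and non-released cells were not compared by a test here. RNF43, a ubiquitin ligase that lowers Wnt receptors, read 5.75, 5.84 and 6.48 against 8.09, 8.06 and 7.86 (1.98 ± 0.18, limma adjusted p = 1.93e-05), and 8.23 and 8.15 in the non-released libraries. TNS4, a tensin, rose by 2.04 ± 0.24 (limma adjusted p = 0.000104).

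The largest falls by the same rule were smaller, from -1.60 to -1.02. SNAPC1, a subunit of the complex that starts transcription of small nuclear RNA genes, read 12.37, 12.46 and 12.22 in the asynchronous and 10.88, 10.31 and 11.06 in the S-phase libraries (-1.60 ± 0.17, limma adjusted p = 5.83e-05). All S-phase libraries were more than 1 unit below all asynchronous ones. PTX3, a secreted pattern recognition protein, read 9.73, 9.44 and 9.02 against 8.22, 7.50 and 8.39 (-1.36 ± 0.21, limma adjusted p = 0.000728). SLC7A2, a transporter of basic amino acids, read 10.98, 11.25 and 12.30 against 10.20, 9.98 and 10.37. Asynchronous replicate 3 was its highest library, and its difference of -1.33 ± 0.25 (limma adjusted p = 0.00205) was -0.83 in the 13-library fit. ADAMTS1, a matrix protease, fell by 1.21 ± 0.15 (limma adjusted p = 0.000157). The remaining 8 were FJX1, TAGLN, SH2D5, ZNF542, FAM46B, SAPCD2, TUFT1 and CCDC86.

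Targets of YAP and TGF-beta, many of them actin-linked or matricellular, were called lower more often than higher. Of 24 tested 10 were lower (41.7%, against 13.6% of all genes) and 1 higher, with a median of -0.26. The 13-library fit called 13 and 1 (median -0.44), and 16% of all genes were lower there. The group of highest level, where 24% of all genes were lower with all libraries, held 19 of the 24. TAGLN, transgelin, an actin-binding protein, read 12.55, 11.98 and 11.46 in the asynchronous and 10.84, 10.83 and 10.79 in the S-phase libraries. The S-phase values lay close together, and the difference was -1.18 ± 0.19 (limma adjusted p = 0.000813). AMOTL2, which holds YAP at cell junctions and is its target, fell by 0.82 ± 0.07 (limma adjusted p = 1.81e-05), and CYR61, AJUBA, LATS2 and AXL by 0.62, 0.72, 0.49 and 0.35. ANKRD1 and CTGF, among the best-known targets of YAP, did not pass (-0.05 and 0.32). The 1 that rose was TGFBI, a TGF-beta-induced matrix protein, from 10.41, 9.72 and 9.42 to 11.09, 10.86 and 11.09 (1.16 ± 0.20, limma adjusted p = 0.0014).

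Of 33 tested collagen and matrix genes 11 were higher (33.3%, against 14.1% of all genes) and none lower (median 0.34), and 10 and 2 in the 13-library fit (median 0.23), where 15.6% and 16% of all genes were called. COL11A1, a fibrillar collagen chain, read 9.47, 9.44 and 9.27 against 10.31, 10.45 and 10.32 (0.97 ± 0.10, limma adjusted p = 4.25e-05). The matrix metalloproteinase MMP14 rose by 1.00 ± 0.14 (limma adjusted p = 0.000346), and the laminin chains LAMA4 and LAMB1 by 0.97 and 0.56. COL1A1, high in S-phase replicate 2, did not pass in either fit (0.37 with 15 libraries and -0.15 with 13). Of 14 tested bone and mesenchymal markers PRRX1 passed with all libraries (0.48 ± 0.11, limma adjusted p = 0.00632; list median 0.23). In the 13-library fit PRRX1 and SPP1 were higher and CDH2 lower (list median -0.01).

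Immediate early and inflammatory genes were called in both directions. Immediate early genes gave 5 higher and 4 lower of 30 (5 and 4 in the 13-library fit). These are 16.7% and 13.3%, against 14.1% and 13.6% of all genes. NR4A1, an orphan nuclear receptor, rose from 8.25, 8.12 and 8.26 to 8.93, 9.70 and 8.92 (0.97 ± 0.22, limma adjusted p = 0.00593), with JUNB and BHLHE40 at 0.85 each and FOS at 0.66, while DUSP1, SRF and JUN fell by 0.71, 0.51 and 0.40. Inflammatory cytokines and NF-kB feedback genes gave 5 higher (21.7%) and 4 lower (17.4%) of 23, and 4 and 5 in the 13-library fit. IL11, a cytokine of the IL-6 family, rose from 9.72, 9.07 and 8.48 to 10.55, 10.90 and 10.46 (1.55 ± 0.29, limma adjusted p = 0.00197). The NF-kB inhibitor NFKBIA fell by 0.60 ± 0.11 (limma adjusted p = 0.00164), and the call of IL8 was not made in the 13-library fit (adjusted p = 0.109).

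Of 33 sterol and fatty acid synthesis genes 8 were lower (24.2%, against 13.6% of all genes) and 3 higher. Their median was -0.23, and 27 had a negative difference. The group of highest level, where 24% of all genes were lower, held 26 of the 33. The 13-library fit called 14 lower and 3 higher, and 16% of all genes were lower there. DHCR7, the last enzyme of cholesterol synthesis, fell by 0.54 ± 0.12 (limma adjusted p = 0.0067). For amino acid and unfolded protein stress 7 of 35 were lower (20%) and 4 higher (11.4%), and 10 and 6 in the 13-library fit. HERPUD1, of the endoplasmic reticulum, rose by 0.64 ± 0.09 (limma adjusted p = 0.000428) and PPP1R15A, a phosphatase subunit that restores translation, fell by 0.69 ± 0.13 (limma adjusted p = 0.00178). For glucose, hypoxia and glycolysis 5 of 32 were higher (15.6%) and 6 lower (18.8%), and 6 and 6 in the 13-library fit. The fructose-2,6-bisphosphate enzymes PFKFB4 and PFKFB3 went apart, PFKFB4 rising by 0.99 ± 0.12 (limma adjusted p = 0.000117) and PFKFB3 falling by 0.49 ± 0.08 (limma adjusted p = 0.000933).

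The p53 targets depended on asynchronous replicate 3. Of 40 tested targets 5 were higher (12.5%) and 4 lower (10%) with all libraries (median -0.05), against 14.1% and 13.6% of all genes. In the 13-library fit 22 were higher and 2 lower (median 0.32), where 15.6% and 16% of all genes were called. Without asynchronous replicate 3 alone 15 targets were higher and 2 lower, against 2216 and 2254 of all 14298 genes. CDKN1A, which encodes the kinase inhibitor p21, read 11.47, 11.45 and 14.10 in asynchronous replicates 1 to 3 and 12.12, 11.77 and 12.18 in the S-phase libraries. Asynchronous replicate 3 lay above every S-phase library and the other asynchronous libraries lay below them, so that the difference was -0.32 ± 0.49 (limma adjusted p = 0.666) with and 0.69 (limma adjusted p = 0.000109) without both libraries. MDM2, the p53 ligase and target, read 12.44, 12.50 and 14.77 against 12.83, 12.49 and 12.80, with -0.53 ± 0.42 (limma adjusted p = 0.373) and 0.34 (limma adjusted p = 0.00498). For comparison, the mean of the 3 Nutlin asynchronous libraries was 13.56 for CDKN1A and 14.62 for MDM2, so that the library labelled DMSO asynchronous replicate 3 was above both.

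Targets called in both fits were TRIM22, PIDD, TGFA, PLK3 and DDB2, higher, and AEN and GADD45A, lower. TRIM22, which interferon also induces, read 9.05, 9.0 and 8.81 against 9.72, 9.54 and 9.66 (0.68 ± 0.09, limma adjusted p = 0.000289). AEN, a nuclease of cell death, read 12.59, 12.55 and 12.38 against 11.98, 11.61 and 12.10 (-0.61 ± 0.11, limma adjusted p = 0.00162). The groups of both genes were apart. TP53INP1, FAS, XPC, TP53I3 and SESN1 were among those called in the 13-library fit only, at 0.86, 0.56, 0.66, 0.67 and 0.51.

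**Figure D4:**
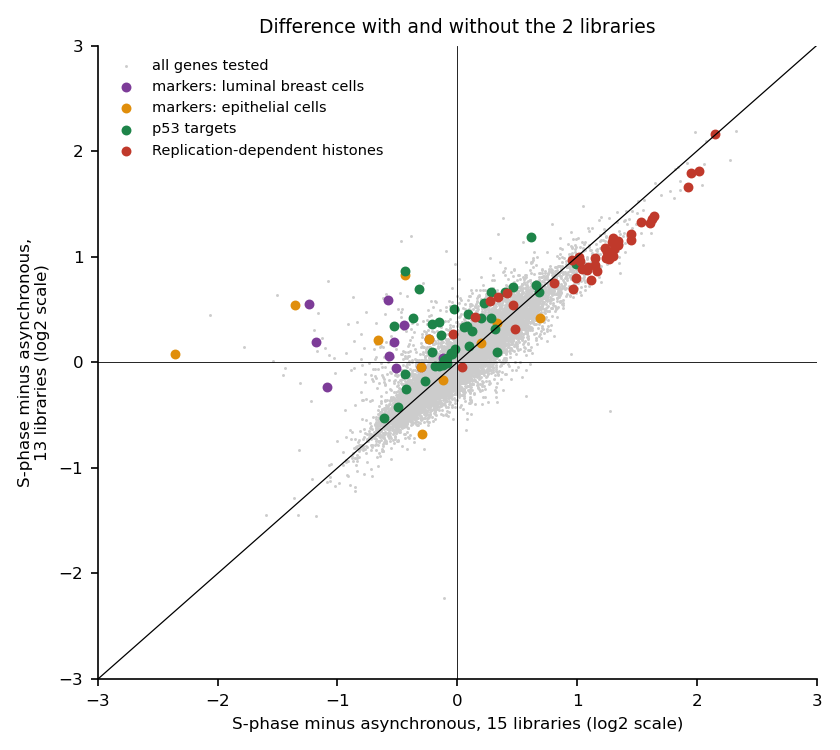
Difference between S-phase and asynchronous DMSO cells (log2 scale) with all 15 libraries against the same difference in the 13-library fit, 1 point per gene, with 4 lists marked and the line of equality. The medians are -0.05 and 0.32 for p53 targets, -0.29 and 0.21 for epithelial, -0.53 and 0.19 for luminal markers and 1.24 and 0.99 for histone genes, and KRT19 lies at -2.36 and 0.08.

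The largest rises called only in the 13-library fit were in SERPINB5, C14orf132, PADI3, PPL, PVRL4 and GDF15. Among the 6 libraries each was highest in asynchronous replicate 3. GDF15, a secreted stress factor and p53 target, read 7.19, 7.05 and 11.76 in the asynchronous and 8.05, 8.06 and 8.49 in the S-phase libraries. SERPINB5, maspin, an epithelial serpin, read 6.33, 6.22 and 9.13 against 7.40, 7.54 and 7.89. Their differences were 1.15 (limma adjusted p = 0.000281) and 1.37 (limma adjusted p = 6.95e-05) in that fit. The largest falls called only there were in KRT34, SERTAD2, LRFN1, UBE2S, MN1 and LOC644936. SERTAD2, LRFN1 and MN1 were high in S-phase replicate 2, SERTAD2 reading 9.37, 10.51 and 9.04 in the S-phase and 10.08, 10.16 and 10.35 in the asynchronous libraries. UBE2S, an enzyme of the anaphase-promoting complex, read 10.19, 10.00 and 9.36 against 9.19, 9.57 and 9.41 (-0.79, limma adjusted p = 0.00903). Of the markers of other cell types, 2 of 11 tested epithelial ones passed with all libraries, KRT7 (0.33) and KRT14 (0.69), none of 11 luminal ones, and CD34 (0.53) of 3 blood ones. In the 13-library fit KRT14 and CD34 did not pass, the epithelial genes CDH1, CLDN4 and KRT7 and the luminal genes ESR1 and SPDEF were higher (0.54, 0.83, 0.37, 0.56 and 0.59) and KRT17 was lower.

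The 2 Nutlin S-phase and 3 Nutlin asynchronous libraries, which share no library with the DMSO groups, gave the same contrast under Nutlin. The spread was estimated from all groups, as for DMSO. There 3434 genes (24%) passed, and of the DMSO calls 1303 higher and 1037 lower ones passed in the same direction, while 2 passed in opposite directions. Shared calls in the same direction were 59.2% of the DMSO calls and 68.1% of the Nutlin calls, and 97.9% of the DMSO calls had the same sign under Nutlin. Histone genes had a median of 1.59 under Nutlin, ribosome biogenesis genes of -0.64 and interferon response genes of 0.38. Other lists were less alike. G2 and mitosis genes had a median of -0.16 under DMSO and 0.02 under Nutlin. For G1/S genes under E2F control the medians were 0.15 and 0.42, and for origin licensing and firing -0.01 and 0.28. These differences between lists were not tested. HIST1H1A rose by 2.77 (limma adjusted p = 6.63e-06), SAMD9 by 1.82 (limma adjusted p = 2.93e-05) and CYP24A1 by 2.43 (limma adjusted p = 2.04e-07). No gene (0%) passed the test of the difference between the 2 contrasts with limma, 787 had an unadjusted p under 0.05 (5.5%), and voom called 0 as well. The 13-library fit also called 0, with 1180 genes at an unadjusted p under 0.05, more than the 787 with all libraries. With 2 Nutlin S-phase libraries this test can miss differences, so 0 calls do not show that the contrasts are equal.

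**Figure D5:**
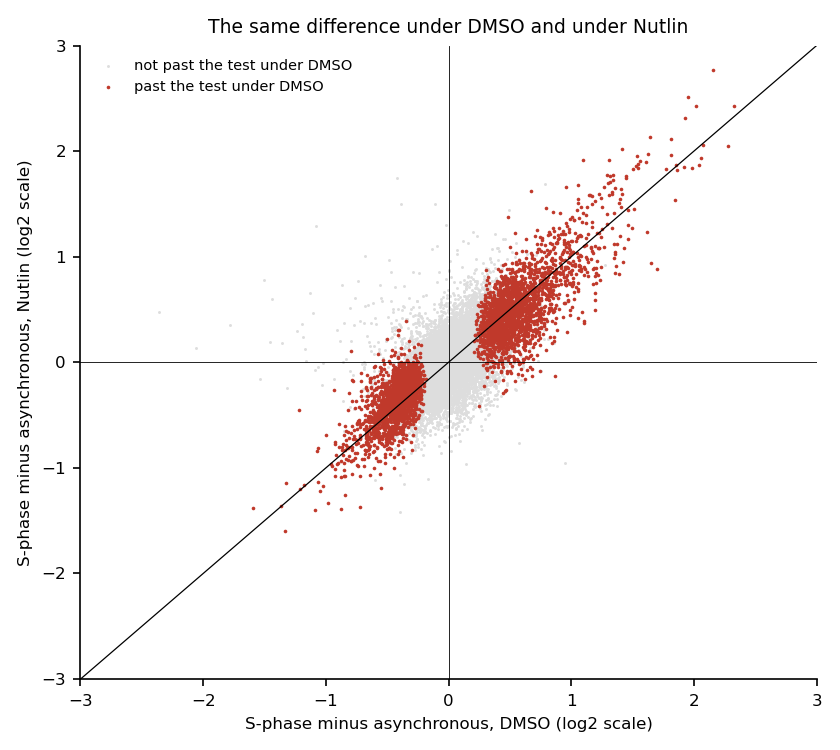
Difference between S-phase and asynchronous cells (log2 scale) under DMSO against the same difference under Nutlin, 1 point per gene, with genes that passed the DMSO test in red and the line of equality. Of the 3955 red points 3873 have the same sign under Nutlin.

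The 5 genes of smallest p for that difference were KCNQ3, PDP2, CCNE2, FBXL13 and CSMD3, none of which passed. CCNE2 rose by 1.38 ± 0.13 under Nutlin and by 0.49 ± 0.12 under DMSO, apart by 0.89 ± 0.18 (limma adjusted p = 0.555). KCNQ3, a potassium channel subunit, was at -0.41 ± 0.08 under Nutlin and 0.25 ± 0.07 under DMSO, apart by -0.67 ± 0.11 (limma adjusted p = 0.444). CSMD3, a large membrane protein, rose from 7.81, 7.62 and 7.58 to 8.76, 8.70 and 8.86 under DMSO (1.1 ± 0.10, limma adjusted p = 1.92e-05) and by 0.39 under Nutlin.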

How the data were processed

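Messenger RNA levels were measured by RNA sequencing in 15 libraries of U2OS cells. Per the labels' protocols, total RNA was taken up in TRIzol, 1000 ng went into each TruSeq library, and reads were single, 50 nt long, from an Illumina HiSeq. Per the submitters' processing notes, the authors used CASAVA 1.8.2, TopHat, HTSeq, DESeq2 1.10.1 and hg19. For the treatment of strand, the gene annotation and any selection of polyadenylated RNA, the sources used here give no statement. The authors deposited 1 table of 23368 genes with variance-stabilised values on a log2 scale, whose lowest value, 4.859, stands for 0 reads. 28 row names were turned into dates by spreadsheet software and stay as they are.

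Groups were taken from the labels. A gene entered the tests when 2 or more of the 15 libraries exceeded the lowest value by at least 1 unit, which held for 14298 genes. limma 3.58.1 (R 4.3.3) fitted a mean for each of the 6 groups with a spread shared across groups and an intensity trend, and p-values were Benjamini-Hochberg adjusted over all tested genes, with a threshold of 0.05. The same fit was made on 13 libraries, without DMSO asynchronous replicate 3 and DMSO S-phase replicate 2. An exact permutation test of 3 against 3 libraries cannot go below p = 0.1, so none is given. Numbers of reads were recovered by inverting the authors' transformation: with a tolerance of 0.05 at least 99.88% of values came out whole in 14 libraries and 99.04% in DMSO S-phase replicate 3. The recovered reads gave the depth, 6.05 to 23.38 M reads per library, and an alternative test with limma's voom. The fit was also run on simulated counts with known changes and no library standing apart. That run cannot show how the libraries that stand apart affect the calls. Alternatives covered leaving out each DMSO library, the filter, centring, quantile scaling, voom, a replicate block and the 6 libraries alone.

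Gene lists were chosen with earlier results of these data known. Named genes are, by rule: the 12 largest differences in each direction among genes called in both fits without overlap between the groups, the 6 largest in each direction among genes called in the 13-library fit only, the 4 members of smallest p of each list with its key members, and the 5 genes of smallest p for the difference between Nutlin and DMSO. Other list members were named beside their counts after their values were seen. Promoters are from RefSeq's table for GRCh38.p14, and motifs were searched in Python 3.11.15 with pandas 2.3.3 in 300 bases around each start.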

Additional observations from a re-analysis of the deposited data

How the results depend on the processing

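Of the 144 named genes 110 were called, and all 110 kept their direction under the 15 alternatives run for the DMSO comparison, 75 of them staying past the threshold under every one. Named genes were chosen largely by their calls and p-values in these same data. Groups without overlap also keep their sign when a library is left out. The kept directions were therefore largely set by the choice of genes. Taking the spread from the 6 libraries alone gave 1010 calls, 693 higher and 317 lower. Leaving out each DMSO library in turn, or both that stand apart, gave 2780 to 4524 calls, of which 1527 to 2234 were higher and 1253 to 2290 lower, the lowest count of lower calls being that without asynchronous replicate 2. Deviations of same-numbered libraries from their group means had correlations of 0.21, -0.14 and -0.25, and the libraries numbered 1 matched each other best. With so few libraries and one standing apart in each group, these values cannot settle whether replicate numbers pair the samples. A fit with the replicate number as a block called 4346 genes, 2188 higher and 2158 lower, against 3955 without it. Genes that changed sign were not called in the fit of 15 libraries. Their lowest and highest differences with 1 library, or both that stand apart, left out were -0.21 and 0.19 for ANKRD1, -0.10 and 0.34 for CD68, -0.76 and 0.69 for CDKN1A, -1.93 and 0.30 for FOXA1, -1.28 and 1.15 for GDF15, -0.13 and 0.29 for IFIT1, -0.11 and 0.034 for ITGAM, -3.69 and 0.10 for KRT19, -0.93 and 0.34 for MDM2, -0.88 and 0.025 for MN1, -0.17 and 1.22 for PADI3, -1.25 and 1.19 for PPL, -0.12 and 1.37 for SERPINB5 and -0.88 and 0.063 for XBP1. Quantile scaling turned ANKRD1 (0.10), CD68 (-0.041) and IFIT1 (-0.14), centring IFIT1 (-0.0125) and voom PPL (1.39). The cause was not tested. S-phase replicate 2, with 6.05 M reads, limits what low genes can show.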

Other observations

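Gene families named by the start of their symbols and chosen after the values were seen are given as counts without a test. The 13-library counts stand in second place. The families share members with the lists above, among them PARP14, PARP9, DDX58, POLR1A, POLR1B, CDH1 and CDH2. Their counts are therefore not independent of those of the lists. Of 37 DDX genes, most of them RNA helicases, 18 were lower and 1 higher (15 and 2; medians -0.21 and -0.18). Of 54 EIF genes of translation initiation 22 were lower and 2 higher (25 and 3; medians -0.28 and -0.28). Of 76 mitochondrial ribosomal protein genes 21 were lower and 1 higher (29 and 1; medians -0.25 and -0.23). Of 30 subunits of RNA polymerases 12 were lower and 0 higher (15 and 0; medians -0.27 and -0.29). Of 13 PRPF splicing factors 9 were lower and 0 higher (8 and 0), and of 465 ZNF genes 102 were lower and 27 higher (86 and 37; medians -0.11 and -0.07). Over all genes 13.6% were lower and 14.1% higher. In the group of highest level 24% of genes were lower, and in that of lowest level 19.2% were higher. The levels of these families and of those below were not taken into account.

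Other families had more genes called higher. Of 13 WNT genes 5 were higher and 1 lower (5 and 1), with a median of 0.40 that was 0.21 in the 13-library fit and 0.06 under Nutlin. Of 20 phosphodiesterase genes named PDE 7 were higher and 1 lower (9 and 1; medians 0.29 and 0.29). Of 12 SOX transcription factors 5 were higher and 0 lower (4 and 0; medians 0.49 and 0.30). Of 14 cadherins named CDH 7 were higher and 1 lower (4 and 2; medians 0.33 and 0.29). Of 12 PARP genes, of ADP-ribosylation, 5 were higher and 0 lower (4 and 0; medians 0.20 and 0.13).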
